A study of Homo sapiens with 2 samples.

Results

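The polo-like kinases were described through every probe set of PLK1, PLK2, PLK3 and PLK4 that carried 1 gene symbol, 10 of the 49293 probe sets that were not controls and 4 of 18132 genes. Expression was measured on Affymetrix arrays in HCT116, a human colorectal carcinoma line grown in DMEM with serum. The control group was HCT116 cells with a scrambled hairpin (Scr, genotype control), and the other was HCT116 cells with a hairpin against SUN2 (shSUN2-1, genotype SUN2 knockdown). SUN2 is an inner nuclear membrane protein that links the nucleus to the cytoskeleton, and the comparison asked which transcripts lie downstream of it. Each group was 1 array made with 1 hairpin, with no replicate culture, so no value below has a test, a p-value or an SD between cultures. The family was proposed because PLK2 was among the genes with the largest difference between these arrays, so its values are a description and not support for a difference.

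Polo-like kinases are serine/threonine kinases with a polo-box region after the kinase domain, through which PLK1 docks onto phosphorylated partners. PLK1 is activated by Aurora A with the cofactor Bora and drives mitotic entry, spindle assembly and cytokinesis, and its transcript peaks in G2 and mitosis. PLK4 starts centriole duplication by recruiting STIL and SAS-6 to the parent centriole. PLK2 and PLK3 were found as genes induced by serum, and both are also induced by stress. PLK5, the remaining family gene, was not analysed here.

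Gene starts are shown for PLK2, the member with a probe set past 2-fold, and PLK1, whose cell cycle control is best known. Both are the 250 bases before the start in RefSeq (GRCh38.p14), written 5′ to 3′ along the gene's strand, with motif matches in capitals. PLK2 lies on the minus strand at chr5:58460087-58460336 and PLK1 on the plus strand at chr16:23678639-23678888.
PLK2: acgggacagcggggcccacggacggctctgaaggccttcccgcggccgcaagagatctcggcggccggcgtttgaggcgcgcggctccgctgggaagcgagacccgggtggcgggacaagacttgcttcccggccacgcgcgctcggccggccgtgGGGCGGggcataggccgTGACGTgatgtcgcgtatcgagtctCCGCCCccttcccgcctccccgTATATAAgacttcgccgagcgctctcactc
PLK1: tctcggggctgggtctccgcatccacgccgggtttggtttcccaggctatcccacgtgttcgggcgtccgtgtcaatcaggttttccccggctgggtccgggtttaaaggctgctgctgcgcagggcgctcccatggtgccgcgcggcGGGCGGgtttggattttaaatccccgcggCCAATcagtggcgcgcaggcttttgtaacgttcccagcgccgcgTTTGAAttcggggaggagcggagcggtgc
The PLK2 window held a TATA box (TATATAA or TATAAAA) that began 30 bases before the start, and 6.08% of 35116 promoter windows of that length held one. It also held a cAMP response element core (TGACGT) at 77 bases, found in 7.10% of windows, and GC boxes (GGGCGG) at 94 and 52 bases, found in 42.6%. The PLK1 window held neither the TATA nor the cAMP match. It held a cell cycle homology region (TTTGAA) at 29 bases, found in 13.3% of windows, a CCAAT box (CCAAT) at 73 bases, found in 32.0%, and a GC box at 102 bases. The PLK3 window and the 3 windows of PLK4 held no TATA, cAMP or TTTGAA match, and all 4 held a GC box. A CArG box, the motif of serum response factor, was in none of the 6 windows of the family and in 1.16% of all windows. Both strands were searched and motifs were allowed to overlap. A match is a run of letters and not a shown binding site.

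The deposited values were intensities that still held background, so a dim probe set can read mostly background. Probe sets made to measure background, without a human target, read 31.7 with 3 G or C bases and 1425 with 25 on the control array. Of these 23 controls, 20 were lower in the knockdown array, while 18 of 18 spike-in controls were higher, by 0.01 to 0.16 on the log2 scale. Values were set on a log2(intensity + 16) scale, which understates the fold of dim genes, and each difference is knockdown minus control. A probe set passed the filter on low values when its mean over both arrays was at least 108.1, the median of all probe sets. SUN2 itself read 81.8% of control on its brightest probe set, a log2 difference of -0.28. Its 6 probe sets were all lower, from -0.39 to -0.05 with a mean of -0.21, and 4 of them passed the filter. Of all 18132 genes, 12220 passed the filter on their brightest probe set. Of the markers fixed for the epithelial line, 10 of 12 passed the filter, and VIL1 did not. The level of these markers summed over the 11 members with a probe set was 8899 in control and 10240 in knockdown cells. Their median level was 405 on both arrays. The keratins KRT8 (1041 to 1325), KRT18 (1872 to 2339) and KRT19 (2619 to 3045) had the largest differences among them. Markers of other cell types passed in 7 of 16 cases, with a sum of 1827 and 1746 over 15 members. Those that passed were the immune marker CD3E, the endothelial PECAM1, VWF and KDR, and COL1A1, PDGFRB and ACTA2 of fibroblasts and mural cells. Those that did not were PTPRC, CD14, LYZ, CDH5, COL1A2, COL3A1, DCN and LUM. No marker was at 0, and none of the background probe sets was either. Why no value was at 0 was not tested. Of all genes past the filter, 49.8% had a difference above 0, with a median of -0.0009. Of the markers past the filter, 9 of 10 epithelial ones were above 0 (median 0.07) and 1 of 7 of other cell types was (median -0.09). The part of these shifts in the results below was not tested.

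PLK2, the stress-induced kinase, was the only family member past 2-fold, and the difference rested on 1 of its 4 probe sets. The probe set 11755161_s_at read 164.8 in control cells and 475.8 in knockdown cells, 311 intensity units more. That was a log2 difference of 1.44, or 2.72-fold higher. On the control array 8 of 23 background controls were brighter than this probe set, and on the knockdown array 4 were. The other 3 PLK2 probe sets were nearly level between the arrays. The probe set 11722162_a_at read 115.7 in control cells and 118.3 in knockdown cells, a difference of 0.03. The probe set 11722163_x_at read 53.8 and 59.0, a difference of 0.10, and 11746837_a_at read 41.1 and 43.0, a difference of 0.05. All 4 were higher in the knockdown array, by 311 intensity units on the first and by 1.91 to 5.25 on the others.

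**Figure D1:**
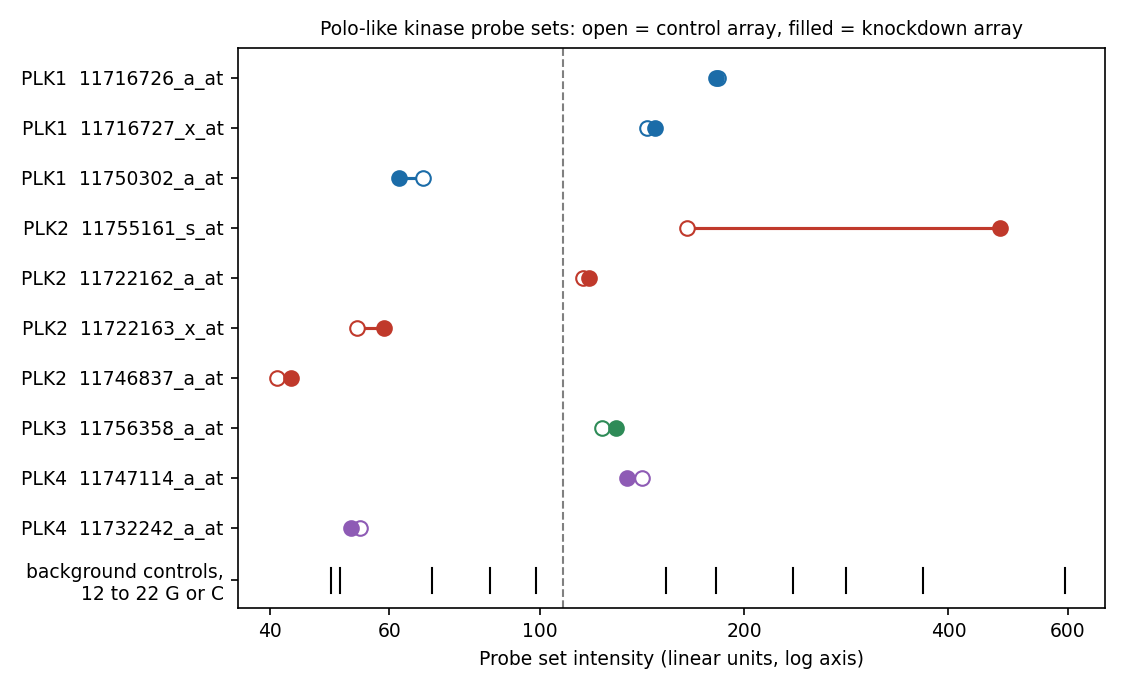
Intensity (linear units, log axis) of the 10 polo-like kinase probe sets in the control array (open) and the knockdown array (filled), with the filter of 108.1 as a dashed line and background controls with 12 to 22 G or C bases as ticks. Only 11755161_s_at of PLK2 moves away from its control value, from 164.8 to 475.8, and 4 probe sets lie below the filter on both arrays.

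The suffix of a probe set gives its class in the array design. Probes of the _a_at class match several transcripts of 1 gene, those of the _s_at class match transcripts that may belong to different genes, and some probes of the _x_at class can bind other sequences. The family had 7 probe sets of the _a_at class, 2 of the _x_at class, 1 of the _s_at class and 0 of the plain _at class. The PLK2 probe set with the large difference was the only one of the _s_at class. Its design rested on another sequence record than the other PLK2 probe sets, which together with it used 3 records. The probe sequences and their places in the transcript were not used here, so whether the probe sets read different PLK2 transcripts, or another gene, was not tested.

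Across the table, large differences were rare in every class. Of 12220 genes past the filter, each read on its brightest probe set, 9 were at least 2-fold higher, 0.0736%, and PLK2 was 1 of the 9. Only 1 gene, 0.00818%, was at least 2-fold lower. Of 24647 probe sets past the filter, 13 were at least 2-fold higher, 0.0527%. Of the 4152 of the _s_at class past the filter, 4 were at least 2-fold higher, 0.0963%. The middle 95% of that class lay between -0.21 and 0.40, against -0.19 and 0.33 for the _a_at class. By size, 5 of all 49293 probe sets had a higher difference than 11755161_s_at, and 2 of 12220 genes had a higher difference than PLK2. PLK2 had been chosen on this contrast, so nothing is read from its place.

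**Figure D2:**
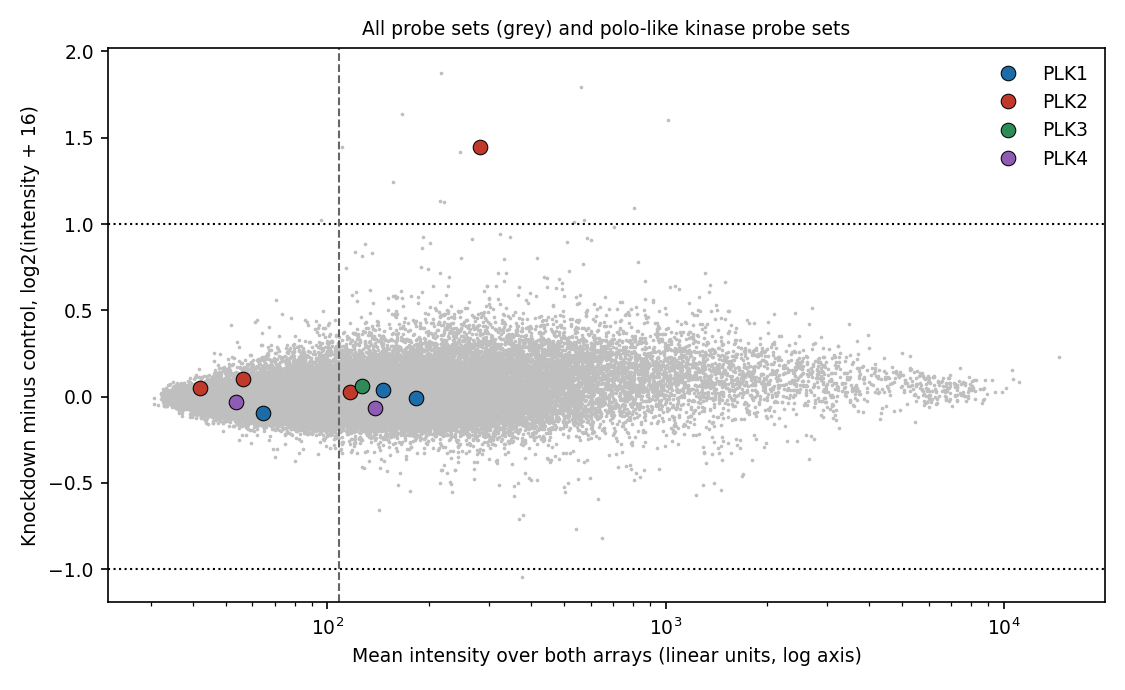
Difference between the arrays (knockdown minus control, log2 scale) against mean intensity (linear units, log axis) for 49293 probe sets in grey and the 10 polo-like kinase probe sets in colour, with 2-fold as dotted lines and the filter of 108.1 as a dashed line. Of the family, 1 PLK2 probe set lies above 2-fold, and the other 9 lie inside the grey band within 0.11 of 0.

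Such disagreement within a gene was uncommon. Over 5786 genes with at least 2 probe sets past the filter, probe sets scattered about the mean of their gene with an SD of 0.09 (the probe set SD), an error of probes and not of cultures. The highest minus the lowest difference of a gene had a median of 0.10 and a 95th percentile of 0.32. For the 2 PLK2 probe sets past the filter this range was 1.42, and 1 gene of the 5786 had a larger one. PLK2 had been chosen for the large difference that sets this range, so nothing is read from that place. PLK1, by contrast, had a range of 0.05 over its 2 probe sets past the filter, and 23.7% of these genes had a smaller one. Among the 9 genes at least 2-fold higher, 5 had a second probe set past the filter. The lowest such probe set was at 1.13 for the histone H2BC5, 0.89 for the annexin ANXA3, 0.59 for the neurotrophin BDNF, 0.42 for the interferon-induced IFI27 and 0.03 for PLK2. PLK2 was therefore the one of these 5 whose probe sets were farthest apart, and PLK2 and IFI27 were the 2 with a probe set under 1.5-fold.

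**Figure D3:**
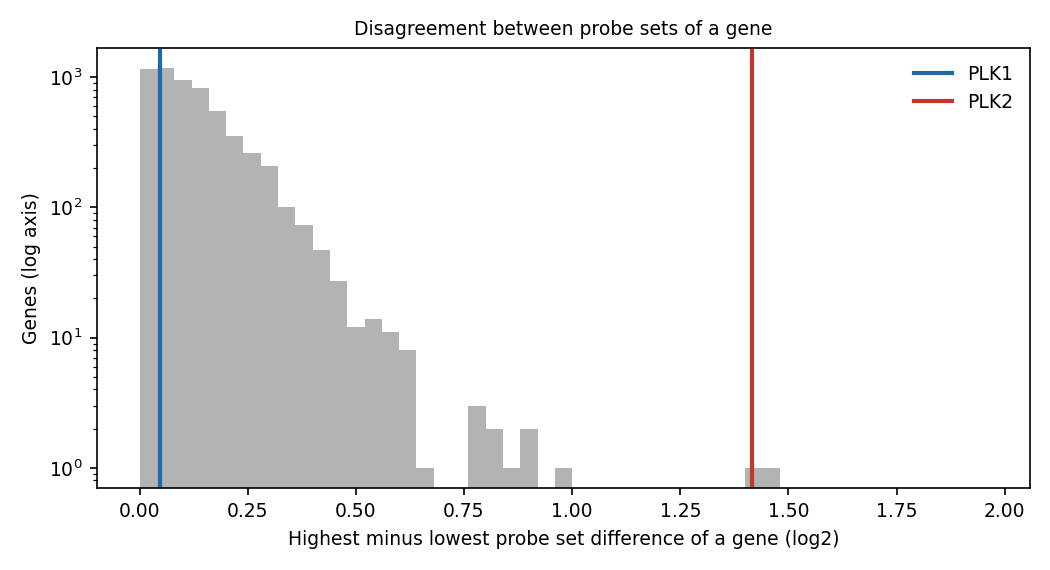
Number of genes (log axis) by the highest minus the lowest probe set difference (log2) within a gene, for 5786 genes with at least 2 probe sets past the filter, with PLK1 and PLK2 as vertical lines. PLK1 sits among the bulk at 0.05, and PLK2 lies far right at 1.42, where 1 gene is farther out. PLK2 had been chosen for the large difference that sets its range.

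PLK1, the mitotic kinase, was level between the arrays. Its brightest probe set, 11716726_a_at, read 183.3 in control cells and 181.9 in knockdown cells, 99.2% of control. The difference of -0.01 was smaller than the probe set SD. The probe set 11716727_x_at read 143.9 and 147.9, a difference of 0.04. The dim probe set 11750302_a_at, below the filter, read 67.3 and 62.0, a difference of -0.10. The 3 probe sets did not share a direction, and their mean difference was -0.02. On the control array 7 of 23 background controls were brighter than the brightest PLK1 probe set, so its share of background is not known.

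PLK4, the kinase of centriole duplication, was slightly lower on both of its probe sets. The probe set 11747114_a_at read 141.5 in control cells and 134.6 in knockdown cells, 95.1% of control and a difference of -0.07. The probe set 11732242_a_at, below the filter, read 54.4 and 52.7, a difference of -0.03. Both differences were smaller than the probe set SD of 0.09.

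PLK3, the relative of PLK2 that is also induced by serum and stress, had 1 probe set with 1 symbol. The probe set 11756358_a_at read 123.4 in control cells and 129.4 in knockdown cells, 105% of control, and the difference of 0.06 was smaller than the probe set SD. As with PLK4, 9 of 23 background controls were brighter than this probe set on both arrays.

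All 4 genes passed the filter on their brightest probe set, as did 12220 of all 18132 genes. Of the 10 family probe sets 6 passed, against 24647 of 49293 in the table, where the cut was the median. Of the 10 probe sets, 6 were higher and 4 lower in the knockdown array, and 9 differed by less than 0.11 in either direction. Most probe sets in the table lay in the range of these 9. Of all 49293, 7854 had a higher difference than the highest of the 9, and 7460 had a lower one than the lowest. Between 0.05 below and 0.05 above the difference of PLK1 lay 3585 other genes of the 12220, and 2716 and 3872 lay as close to PLK3 and PLK4. Within the same window of PLK2 lay 1 other gene. By likeness of the difference over the 2 arrays, the 4 genes nearest to PLK2 were KRTAP2-3, a hair keratin-associated gene (1.42), the annexin ANXA10 (1.14) and the histone genes H2BC5 (1.13) and H2BC12 (1.79). Such likeness over 2 arrays says nothing of shared control.

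Other settings of scaling, pseudocount and background left 11755161_s_at past 2-fold and the other 9 probe sets under 1.5-fold. Over median centring, quantile normalization, loess, pseudocounts of 1 and 64 and a normexp background correction, 11755161_s_at stayed between 1.24 and 1.65. The other PLK2 probe set past the filter stayed between 0.02 and 0.06. The brightest PLK1 probe set lay between -0.02 and 0.01, so its direction was not fixed. PLK3 lay between 0.05 and 0.09, and the brightest PLK4 probe set between -0.08 and -0.04. The PLK2 call depended instead on which probe set stood for the gene. Without the _x_at and _s_at classes PLK2 differed by 0.03, and with the mean of its 4 probe sets by 0.41, under 1.5-fold.

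**Figure D4:**
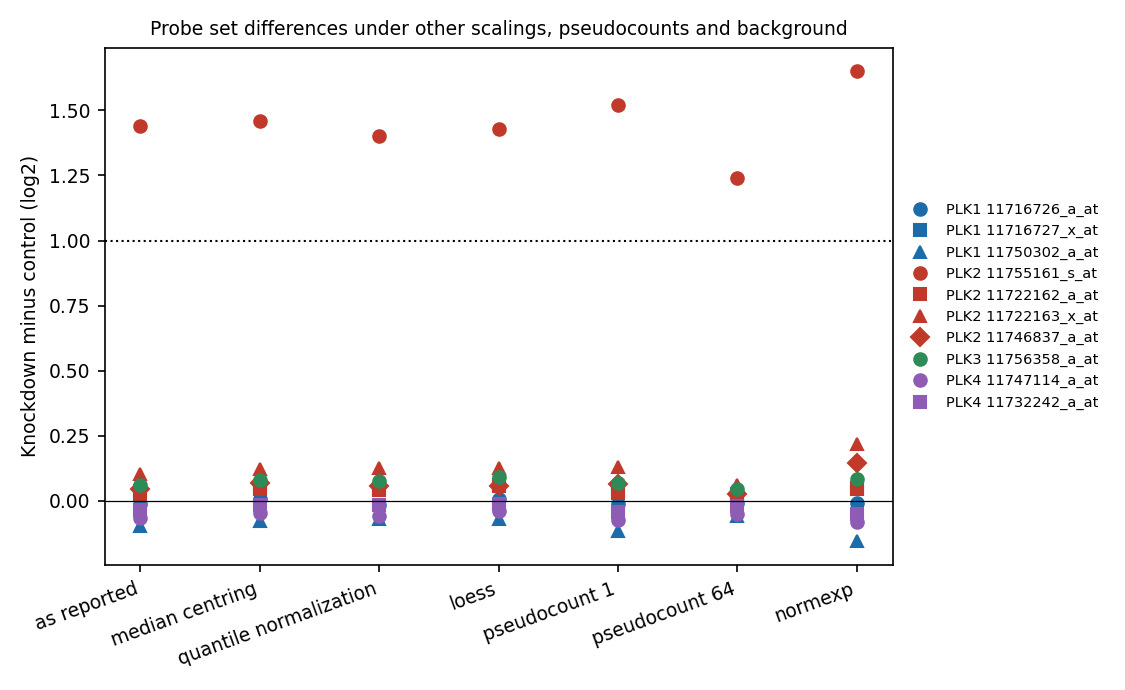
Difference between the arrays (knockdown minus control, log2) of each polo-like kinase probe set as reported and under 6 other settings of scaling, pseudocount or background, with 2-fold as a dotted line. The PLK2 probe set 11755161_s_at stays between 1.24 and 1.65 in every column shown, and the other 9 stay between -0.16 and 0.22.

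Genes that work with PLK1 differed little between the arrays. No gene of any list described here reached 1.5-fold, which 0.336% of all genes exceeded upward and 0.0245% downward. Of 16 genes that activate PLK1 or act with it at mitotic entry, all passed the filter, 11 were above 0 and 5 below, with a median of 0.06. Of all genes 49.8% were above 0, with a median of -0.0009. The phosphatase CDC25B, which activates CDK1, was highest at 0.49 (486.8 to 690.5), over probe sets from 0.14 to 0.49. CDC25A was at 0.26, over probe sets from 0.01 to 0.30, and cyclin B1 (CCNB1) at 0.26 on its 1 probe set. The upstream kinase AURKA stood at 0.003 and its cofactor BORA at -0.02. FOXM1, a transcription factor of the G2/M genes including PLK1, stood at 0.04. CDK1 stood at -0.01 on its brightest probe set and at 0.21 on the other one past the filter. AURKA, BORA, FOXM1 and CDK1 were picked for their roles after their values were seen.

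Of 25 partners and substrates of PLK1 in mitosis, 24 passed, 15 were above 0 and 9 below, and the median was 0.05. That median turned to -0.03 after quantile normalization and -0.01 after loess, so the list has no fixed direction. The cytokinesis genes CEP55 (697.5 to 833.8) and RACGAP1 (812 to 948.1) were at 0.25 and 0.22, and NUDC, which PLK1 phosphorylates, was at 0.21. Both CEP55 probe sets were higher, by 0.24 and 0.25, whereas those of RACGAP1 ran from -0.09 to 0.22.

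The centriole genes around PLK4 had a median of 0.04, with 13 of 22 above 0 and 9 below. The largest difference was a lower value of the centrin CETN2, from 451 to 328, a log2 difference of -0.44 on its 1 probe set. CEP78 was at -0.29 on 1 probe set past the filter, and CEP63 at 0.18. The PLK4 partners STIL (0.04), SASS6 (0.13), CEP152 (-0.02) and CEP192 (0.15), picked for their roles after their values were seen, were each under 1.12-fold.

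Partners and substrates of PLK2 and PLK3 showed no shared direction. Of 13 past the filter, 5 were above 0 and 8 below, and the median was -0.02. FBXW7, a ubiquitin ligase subunit that PLK2 phosphorylates, was at 0.47 (132.1 to 189), with 3 probe sets from 0.34 to 0.50. The kinase VRK1, which PLK3 phosphorylates, was at 0.27, and CDC25C, a PLK3 substrate, was at -0.13.

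Stress and serum are the settings in which PLK2 and PLK3 are known to be induced. Of 19 stress-induced genes past the filter, 18 were above 0 and 1 below, with a median of 0.13, where 49.8% of all genes were above 0. That median lay between 0.09 and 0.15 under other settings. The signs are those of the brightest probe sets, and some of the 18 also had a probe set past the filter below 0. The epithelial markers also leaned upward, with 9 of 10 above 0. CDKN1A and FAS were at 0.36 and 0.32 on their brightest probe sets, the lower of 2 in both. MDM2 was at 0.39 on its brightest probe set, the highest of 7 past the filter, which ran down to -0.07. Of 21 immediate early genes past the filter, 10 were above 0 and 11 below, with a median of -0.02 that took both signs under other settings (-0.04 to 0.02). EGR1 and IER3 were at -0.48 and -0.45, and MYC at 0.48. PLK3 at 0.06 and the brighter _a_at probe set of PLK2 at 0.03 lay below the median of the stress list, and 11755161_s_at lay above the highest member of both lists. With bulk RNA, a change in the share of cells that express a gene and a change in RNA per cell cannot be told apart.

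**Figure D5:**
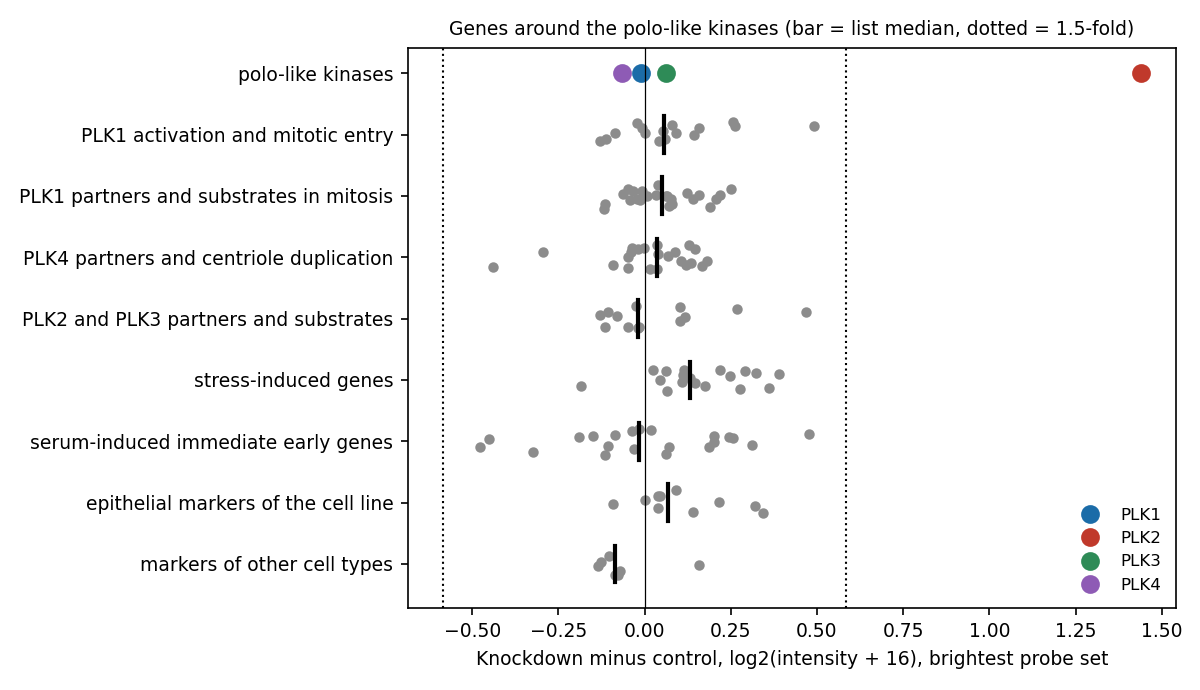
Difference between the arrays (knockdown minus control, log2 scale, brightest probe set) for the 4 polo-like kinases and for each gene past the filter in 8 lists, with list medians as bars and 1.5-fold as dotted lines. PLK1, PLK3 and PLK4 sit near 0 among the list members, and PLK2 alone lies past 1.5-fold, at 1.44 on 11755161_s_at. The other PLK2 probe sets, not drawn, were at 0.03, 0.10 and 0.05. PLK2 had been chosen for its large difference.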

How the data were processed

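Total RNA of HCT116 cells was hybridised as biotinylated cRNA made from 100 ng, per the labels' protocols. Intensity was deposited for each probe set as a linear value; MAS5 and RMA are both named, per the submitters' processing notes, without saying which made it. Their scaling and centring is not stated in the sources used. The deposited intensities had medians of 108.8 (control) and 107.1 (knockdown). The table held 49395 probe sets, 102 of them controls. Of the others, 44988 carried 1 symbol in the platform annotation, 1832 carried several and 2473 lacked one. Entrez IDs brought 44961 of the symbols up to date in RefSeq (GRCh38.p14).

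Values were set to log2(intensity + 16), and each gene was read on its brightest probe set, by the mean of both arrays. Genes passed the filter when that mean reached the median over the non-control probe sets. With 1 array per group there was no test; genes were counted past 2-fold and 1.5-fold. The number of arrays limits the precision. The members and the 8 lists (153 genes, 129 past the filter) were chosen with earlier results of these data known, and the promoter motifs with the sequences in view; 1 listed gene is not reported here. Named genes were the members, SUN2, the 3 list members with the largest difference, any past 1.5-fold, and the 4 genes nearest to PLK2; other names are cell type markers, are marked as picked afterwards or are compared with PLK2. Promoter windows matched for all 4 members. The gene steps were tested on simulated data. Python 3.11.15 (pandas 2.3.3, statsmodels 0.14.6) and limma 3.58.1 for normexp were used.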

Additional observations from a re-analysis of the deposited data

How the results depend on the processing

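No paired analysis was possible because there was a single array for either condition, which also means none could be dropped. PLK1, PLK3 and PLK4 moved by less than the probe set SD under the 10 alternatives, but some of these could not move them. The 2 other filters could not. Leaving out the _x_at and _s_at classes could not either, as the brightest probe set of each is of the _a_at class. The mean of all probe sets could not move PLK3, which has 1. All 3 genes fell below the filter at the 75th percentile. PLK2 moved from 1.44 to 1.24 with a pseudocount of 64, 1.65 with normexp, 0.41 with the mean of all its probe sets and 0.028 without the _x_at and _s_at classes; the last 2 follow from leaving out or averaging in other probe sets. Genes at least 2-fold higher numbered 5 with a pseudocount of 64, 16 with normexp, 4 with the mean of probe sets and 5 without the _x_at and _s_at classes. Genes at least 2-fold lower numbered 0 with a pseudocount of 64 and 0 with the mean of probe sets. Genes at least 1.5-fold higher numbered 22 with the mean of probe sets, and those at least 1.5-fold lower 10 after quantile normalization, 8 after loess and 7 with normexp. For the counts the cause was not tested. All 8 list medians moved by less than the probe set SD, which is a scatter of single probe sets and not of list medians. The median of the PLK4 partners fell from 0.04 to 0.0009 after quantile normalization. Of the 8 medians, 3 took both signs over the alternatives: PLK1 partners (-0.03 to 0.07), PLK2 and PLK3 partners (-0.04 to 0.04) and immediate early genes (-0.04 to 0.02). Background in the values limits all dim probe sets.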

Other observations

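One further probe set, of the _a_at class, lists PLK3 together with a second gene symbol and so was left out. It read 110.8 in control cells and 95.2 in knockdown cells, a log2 difference of -0.19, against 0.06 on the PLK3 probe set with 1 symbol. The 1 gene whose probe sets were farther apart than those of PLK2 was GJA1, which encodes the gap junction protein connexin 43, with a range of 1.47; it was named after its value was seen.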
